A study of Cucumis melo with 12 samples.

Results

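Leaves of 2 melon (Cucumis melo) varieties were compared after 12 h at 4 °C, with 3 RNA-seq libraries of variety 162 and 3 of variety 13-5A. These are 6 of the 12 libraries of the series, and the other 6 were taken from the same varieties at 0 h. The submitters call 162 tolerant of chilling and 13-5A sensitive to it, and the comparison asks how the leaf transcriptomes of the varieties differ once both have been in the cold. The labels attach the 4 °C treatment to both times and give neither the temperature before 0 h nor the age of the plants. No group was kept warm until 12 h, so cold and elapsed time act together in every 12 h library. Of 21691 genes in the table, 15194 averaged 1 FPKM or more across the 6 libraries and were compared. FPKM divide each gene's reads by its length and by the library's depth, and are thus levels per length. The genes nearest that minimum had means of 1.0008 FPKM inside it and 0.99995 outside it.

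Melon is a warm-season crop of the gourd family, and its leaves can be injured by cold well above freezing. In plants in general, chilling stiffens membranes, slows carbon fixation while light absorption goes on, and raises reactive oxygen species. The best known transcriptional route, worked out in Arabidopsis, runs from the ICE1 protein to the CBF (DREB1) transcription factors, which switch on cold-regulated genes for protective proteins and sugars. The genes here carry identifiers without names, positions or sequences, and 0 of 21691 matched the annotation at hand. None of these pathways, and no leaf cell type, could therefore be looked up, and genes are described below by level, size of difference and behaviour at 0 h.

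The 6 libraries held between 41299369 and 45244324 reads, recovered from the deposited values, so depth was even. Within a variety, libraries correlated at 0.958 to 0.985 over the compared genes (6 pairs), and between varieties at 0.894 to 0.939 (9 pairs). The first principal component of the 6 libraries held 66.4% of the variance and placed the varieties on opposite sides. Replicate 3 of 162 stood off from its fellows on the second component, which held 17.1%. Separate plants are not stated in the labels. The p-values therefore measure only the spread between these libraries, which may be technical.

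One 12 h library of 13-5A stood apart, and some results, among them the counts of calls, are given with and without it. To measure this, 54 genes were taken that had at least 1 FPKM in each 0 h library of 162 and at most 2 reads in all over the 0 h libraries of 13-5A. No 12 h library took part in that choice, which was made after the data were seen. At 12 h, replicates 1, 2 and 3 of 13-5A held 39, 637 and 110 reads in these 54 genes. That was 0.462%, 6.24% and 0.94% of the mean level in 162 at 12 h. Replicate 2 had a read in 39 of the 54 genes, replicate 1 in 14 and replicate 3 in 16, while the 0 h libraries of 13-5A held 5, 1 and 6 reads. In the reverse set, 75 genes lacking in 162 at 0 h, the 12 h libraries of 162 held 18, 28 and 71 reads, or at most 0.773% of the level in 13-5A.

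**Figure D1:**
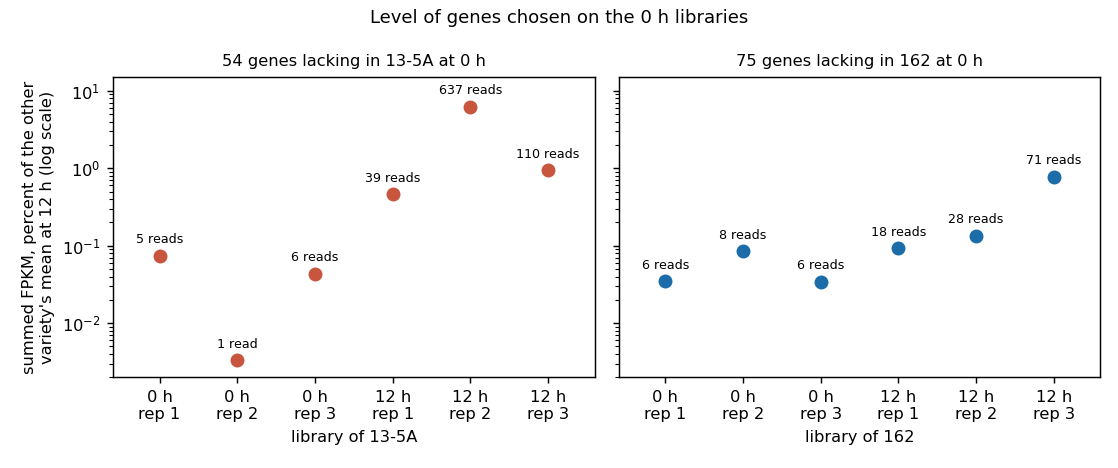
Summed level of 54 genes almost without reads in the 0 h libraries of 13-5A (left) and of 75 such genes of 162 (right), per library, as a percent of the other variety's mean at 12 h on a log scale, with read counts beside each point. Replicate 2 of 13-5A at 12 h stands at 6.24%, above every other library shown.

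The same library lay nearer to 162 among ordinary genes. Genes called between varieties at 0 h after scaling of the libraries numbered 1942 (12.8% of those tested). In 1169 of them, or 60.2%, replicate 2 lay furthest of the 12 h libraries of 13-5A in the direction of 162 at 0 h. Replicate 1 did so in 462 and replicate 3 in 311. Taking the mean log2 level of the 1013 of these genes higher in 162 minus that of the 929 lower, the 162 libraries at 12 h had 1.01, 0.95 and 1.08. The 13-5A libraries had -1.01, -0.62 and -1.20, so replicate 2 was displaced from its fellows towards 162 without overlapping 162. At 0 h the 13-5A libraries had -2.12, -1.94 and -2.20, so all of them lay nearer to 162 at 12 h. The 162 libraries had 1.03, 0.98 and 1.14 at 0 h. Because the genes were chosen at 0 h, a wider gap is favoured there. The reason for the displacement of replicate 2 was not tested.

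Compared with 13-5A, 162 had 780 genes at a higher level (5.13% of the 15194 compared) and 455 at a lower level (2.99%) after 12 h, together 8.13%. A gene was called when limma's Benjamini-Hochberg adjusted p was under 0.05 and the log2 difference at least 1 in size, on the log2(FPKM + 1) scale. The called genes differed by a median of 1.38 when higher and -1.44 when lower, against 0.07 over all compared genes. On the log2(FPKM + 1) scale 152 genes were higher by at least 2 and 109 lower by at least 2, and 10 and 19 by at least 4. The added 1 shrinks the differences of genes near 0 FPKM in either variety, so these are not folds in FPKM. The groups did not overlap in 1216 of the 1235 calls, which says little alone because 41.5% of all compared genes had groups without overlap. In leaves taken whole, less of a transcript per cell and fewer cells that hold it cannot be told apart.

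With median-ratio scaling, which divides each library by its median ratio to an average library, 629 genes were higher (4.14%) and 566 lower (3.73%), together 7.86%. The share of calls that were higher in 162 went from 63.2% to 52.6% by the scaling alone. Without replicate 3 of 162 the scaled split was 590 higher and 628 lower, so the excess then lay on the other side. The median difference of all compared genes moved from 0.07 to -0.02. In all, 1084 genes (7.13%) were called alike under both scalings, 629 higher (4.14%) and 455 lower (2.99%). The scaling ended 151 calls of higher genes and added 111 of lower genes. Beside this, the 10 highest genes took 13.6%, 14.1% and 11.1% of all FPKM in the 162 libraries and 17.3%, 15.9% and 19.3% in those of 13-5A. These groups did not overlap, and the exact two-sided permutation p was 0.1, the smallest that 3 against 3 allows.

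Without replicate 2 of 13-5A the counts rose to 924 higher (6.08%) and 496 lower (3.26%), together 9.34%, and after scaling to 725 and 629. Of the 1235 calls, 1141 were made again, and the difference was larger in 76.6% of those tested again, against 36.4% when replicate 1 was left out and 30.7% when replicate 3 was. Over all compared genes these shares were 64.7%, 50.6% and 44.8%. The median size of the called differences was 1.498 without replicate 2, 1.37 without replicate 1 and 1.36 without replicate 3, beside 1.39 with all. Leaving out replicate 3 of 13-5A gave 582 higher and 395 lower. With limma voom on the recovered reads, 1005 genes were higher (6.61%) and 551 lower (3.63%), together 10.2%.

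**Figure D2:**
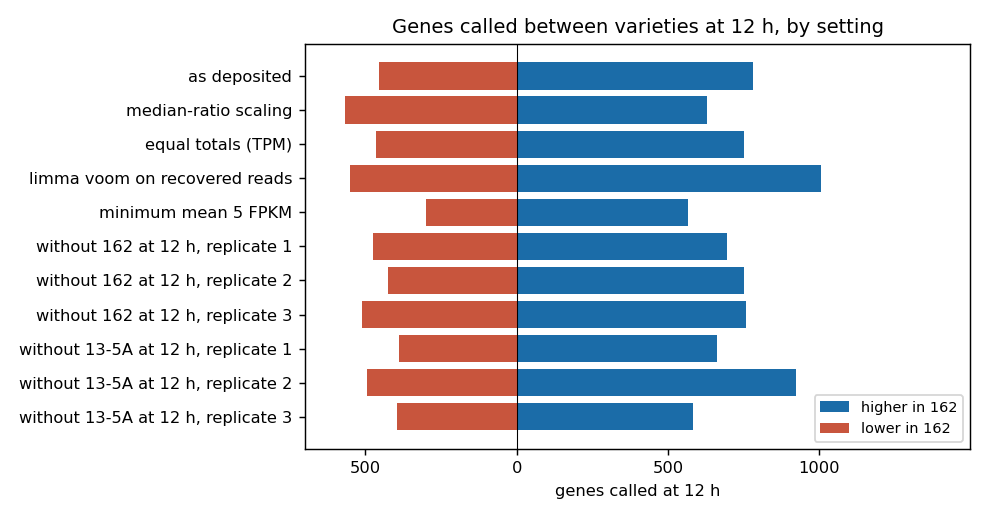
Number of genes called higher (right) and lower (left) in 162 at 12 h with the values as deposited, under 4 other treatments of the data, and with each 12 h library left out. The excess of higher genes, 780 against 455 as deposited, shrinks to 629 against 566 under median-ratio scaling, and the counts are highest after voom and without replicate 2 of 13-5A.

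Calls were spread over the whole range of expression. Between 1 and 5 FPKM, 9.26% of 3964 genes were called, between 5 and 20 FPKM 7.87% of 5731, between 20 and 100 FPKM 7.24% of 4390, and at 100 FPKM or more 8.93% of 1109. Among the 100 most abundant genes 5 were called, all higher in 162, and 3 of these after scaling. The 780 higher genes made up 6.90% ± 0.72 of all FPKM in 162 at 12 h (SD, n = 3) and 2.40% ± 0.37 in 13-5A, where replicate 2 had the highest share, 2.81%. The 455 lower genes made up 1.01% ± 0.08 in 162 and 3.17% ± 0.34 in 13-5A, where replicate 2 had the lowest, 2.78%. Those directions follow from the choice of genes.

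**Figure D3:**
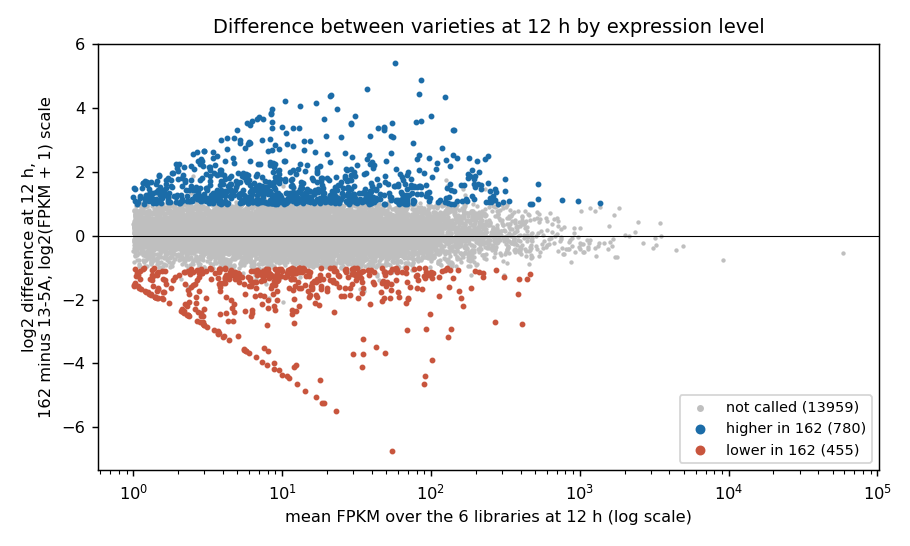
Log2 difference at 12 h, 162 minus 13-5A, against the mean FPKM over the 6 libraries (log scale), with 1 point per compared gene. The 780 higher genes (blue) and 455 lower genes (red) are spread along the axis, and the straight lower edge of red points is made of genes with almost no reads in 162.

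Short genes were called more often than long ones. Calls were 17.6% of 740 genes under 500 bases, 13.2% of 2230 between 500 and 1000, 8.04% of 6991 between 1000 and 2000, and 4.76% of 5233 at 2000 bases or more. The median length was 1313 bases for higher and 1317 for lower genes, against 1647 for all compared. After scaling the same classes had 17.7%, 12.9%, 7.72% and 4.53%. Spread moved with length as well, with a median SD among the 162 libraries of 0.33 in the shortest and 0.18 in the longest class on the log2 scale (0.29 and 0.15 in 13-5A). Its part in the result was not tested.

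The largest difference in favour of 162 was in MELO3C002437.2. It stood at 143, 114 and 77.8 FPKM in the 162 libraries and at 0.153, 6.78 and 0.962 in those of 13-5A. The replicate that stands apart held the highest value of 13-5A, 238 of its 276 reads there. The log2 difference was 5.40 (SE 0.58, limma adjusted p = 5.62e-05), and 6.19 without that library. MELO3C015002.2 followed, at 150, 140 and 205 FPKM in 162 against 5.74, 7.93 and 1.95 in 13-5A, a difference of 4.86 (SE 0.41, adjusted p = 8.35e-06). Both genes had been at least as far apart at 0 h, by 6.76 and 5.47, and the change in difference was not called for either (interaction adjusted p = 0.355 and 0.587).

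In the other direction, MELO3C024499.2 had 1, 4 and 2 reads in the 162 libraries and 132, 107 and 90.4 FPKM in 13-5A. Its log2 difference was -6.74 (SE 0.52, limma adjusted p = 3.79e-06), a size that depends on the pseudocount because 162 was nearly at 0. At 0 h the 13-5A libraries held 9.05, 0.803 and 11.0 FPKM, so the gap widened by -4.22 (interaction adjusted p = 0.0124). With voom on the recovered reads that widening was no longer called (adjusted p = 0.391). MELO3C019363.2 had 2, 0 and 1 reads in 162 and 45.9, 34.7 and 57.2 FPKM in 13-5A, a difference of -5.49 (SE 0.16, adjusted p = 4.95e-10). At 0 h it had 62.2, 68.1 and 61.4 FPKM in 13-5A and 7 reads over the 162 libraries.

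The 20 largest in favour of 162 ran from 3.66 to 5.40, with medians of 38.7 FPKM in 162 and 1.15 in 13-5A, and 3 of them had at most 10 reads in all 13-5A libraries together. The 20 largest in favour of 13-5A ran from -6.74 to -3.98, with medians of 0.0463 FPKM in 162 and 26.7 in 13-5A, and 13 had at most 10 reads in 162. Without replicate 2 of 13-5A, the former had a median of 0.424 FPKM in 13-5A and 8 of the 20 had at most 10 reads there, against 3 without replicate 1 and 4 without replicate 3. Of the former 19 were called higher at 0 h, where 11.6% of all compared genes were, and of the latter all 20 were called lower, where 2.9% of all were.

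The median size of the log2 difference was 0.37 at 100 FPKM or more, against 0.32, 0.28 and 0.30 in the classes below, from the lowest level up. MELO3C031601.2 was the most abundant of those called higher in 162 under both scalings. It stood at 1124, 943 and 1051 FPKM in 162 and at 484, 538 and 415 in 13-5A, with no overlap. The log2 difference was 1.12 (SE 0.19, limma adjusted p = 0.0014). At 0 h the varieties had 303 ± 14.6 and 293 ± 76.6 FPKM (SD, n = 3), a difference of 0.08. The widening of 1.04 was called (interaction adjusted p = 0.046), but the call was lost in 11 of 12 fits that left out a library. MELO3C002047.2 stood at 607, 669 and 902 FPKM in 162 and at 328, 388 and 272 in 13-5A, by 1.13 (SE 0.22, adjusted p = 0.00371). Without replicate 3 of 162 its difference was 0.97, under the 2-fold minimum.

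Of the abundant genes lower in 162, MELO3C020934.2 stood at 221, 221 and 429 FPKM in 162 and at 597, 648 and 669 in 13-5A. Replicate 3 of 162 lay between its fellows and 13-5A. The log2 difference was -1.20 (SE 0.27, limma adjusted p = 0.00843), and at 0 h it had been -0.16. The change in difference, -1.04, was not called (interaction adjusted p = 0.137). MELO3C017581.2 stood at 219, 258 and 262 FPKM in 162 and at 786, 593 and 534 in 13-5A, a difference of -1.35 (SE 0.3, adjusted p = 0.00717). It was already -1.15 at 0 h, at 549 ± 204 against 1202 ± 393 FPKM.

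**Figure D4:**
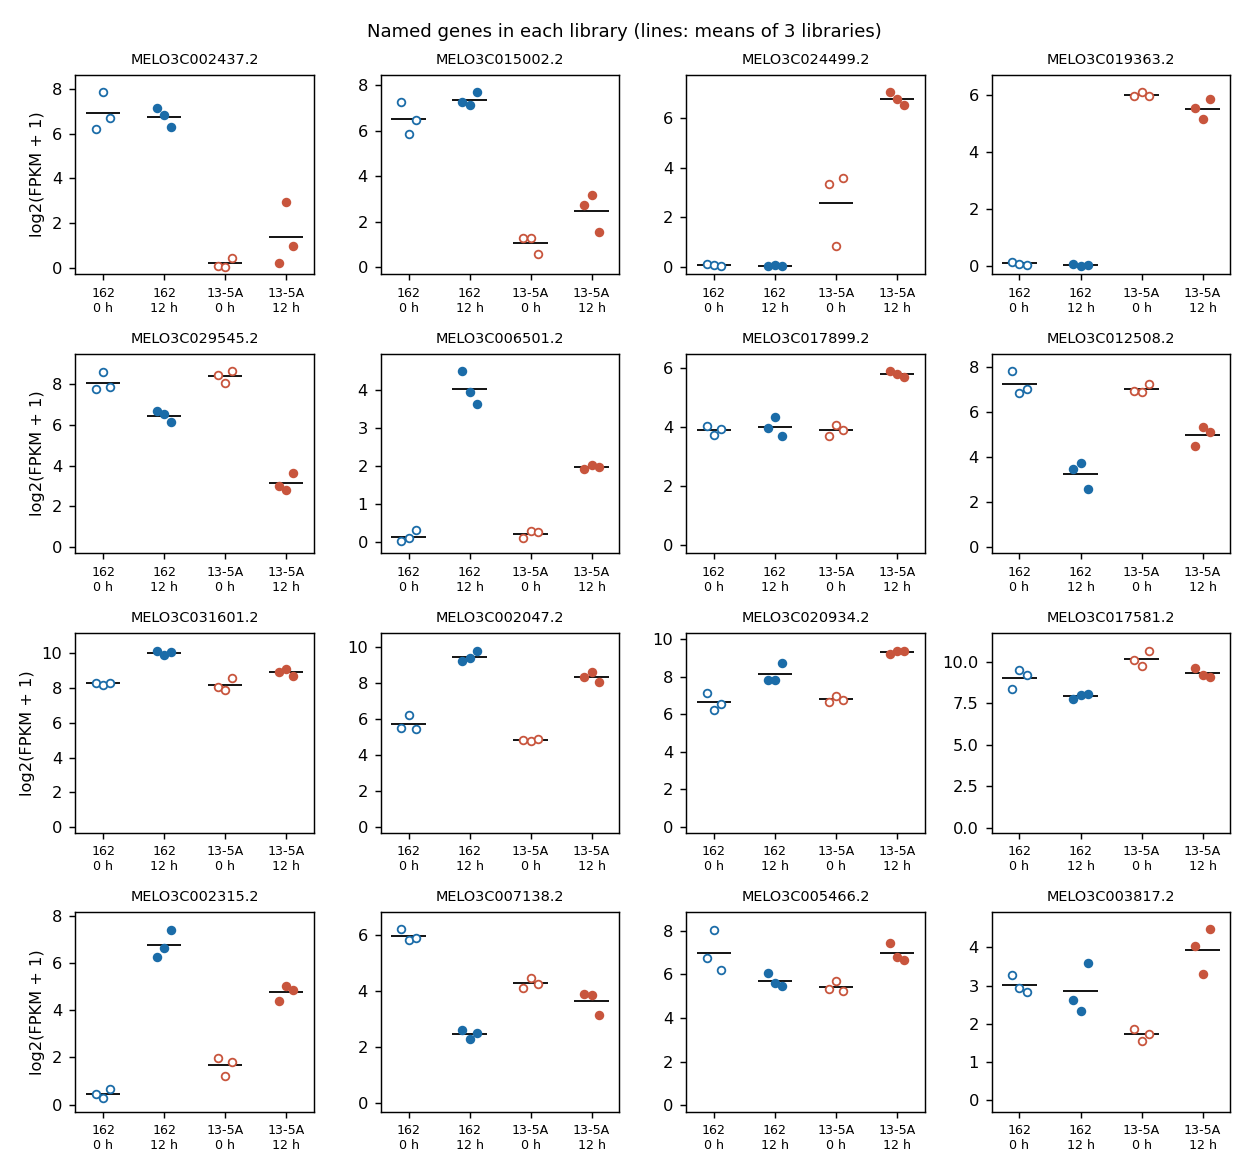
Log2(FPKM + 1) of the 16 genes named in the text in each of the 12 libraries, with 162 in blue, 13-5A in red, open points for 0 h, filled points for 12 h and lines for means of 3 libraries. The top row differs strongly at both times, the second row differs at 12 h from near-equal levels at 0 h, the third row holds abundant genes, and the bottom row changes the order of the varieties.

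The difference at 0 h is taken from other libraries than the difference at 12 h, but both tests share one estimate of spread over all 12 libraries. Among the 780 genes with a higher level in 162 at 12 h, 503 (64.5%) had that call at 0 h as well, where 11.6% of all compared genes were called higher. Of the 455 lower genes, 211 (46.4%) were called lower at 0 h, where 2.9% of all were called lower. When the 12 h calls were made on the 6 libraries at 12 h alone, 502 of 780 higher genes and 208 of 453 lower genes had the same call at 0 h. The sign at 0 h was the same in 738 of the 780 and in 382 of the 455. The median 0 h difference was 1.36 for the former and -0.92 for the latter, against 0.23 over all compared genes. Across all 15194 genes the differences at 12 h and 0 h correlated at r = 0.714 (Spearman's rho 0.625), as a description over genes, which are not independent.

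With median-ratio scaling the start looked more even. Of 629 higher genes 358 (56.9%) were called higher at 0 h, and of 566 lower genes 301 (53.2%) were called lower, against 6.67% and 6.11% of all. The median 0 h difference of all genes moved from 0.23 to -0.03 by the scaling. Of 1761 genes called higher in 162 at 0 h, 28.6% had the same call at 12 h, against 5.13% of all compared genes, and of 440 called lower, 48.0%, against 2.99%. After scaling these shares were 35.3% of 1013 and 32.4% of 929. A call not made again does not show that the difference had gone. In the 0 h libraries, which entered the choice only through the shared spread, the 780 higher genes held 5.28% ± 0.70 of FPKM in 162 and 1.80% ± 0.01 in 13-5A (SD, n = 3). The 455 lower genes held 1.45% ± 0.12 and 3.21% ± 0.10.

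**Figure D5:**
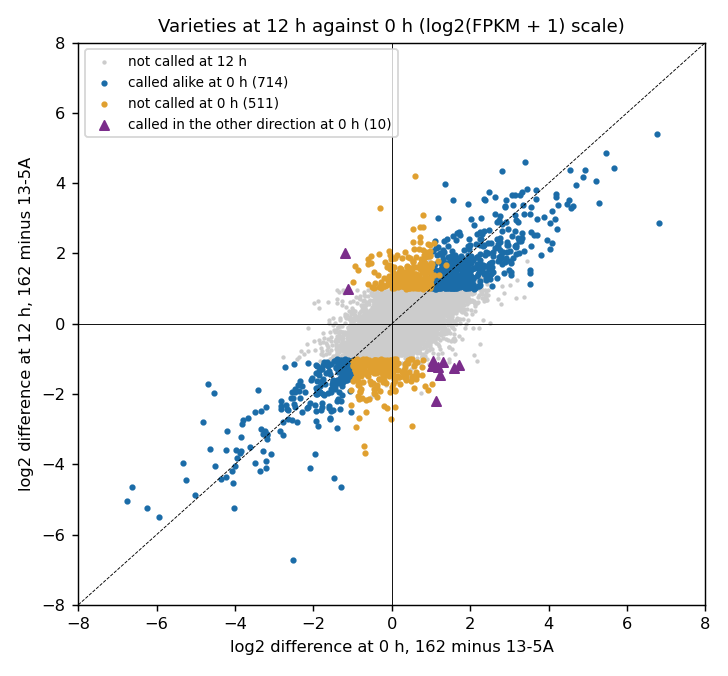
Log2 difference between varieties at 12 h against that at 0 h, both 162 minus 13-5A, with 1 point per compared gene and the dashed line marking equal differences. Of the genes called at 12 h, 714 were called alike at 0 h (blue), 511 were not called at 0 h (orange) and 10 were called in the other direction (triangles).

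A missing call at 0 h does not show that a difference arose later, so the change in difference was tested as an interaction. It was called for 166 of the 1235 genes, against 3.38% of all compared genes (0.981% with a change above 0 and 2.4% below 0), and the comparisons share the 12 h libraries. After scaling it was called for 148 of 1195, against 2.67% of all (1.54% above 0 and 1.13% below 0). In 139 of the 166 the change had the sign of the 12 h difference. The gap was smaller at 12 h than at 0 h in 4 of these and larger in the rest, and 79 of the 139 had the opposite sign at 0 h. In the other 27 the gap had narrowed. Choosing genes by their 12 h call favours changes with the sign of the 12 h difference, so the split of 139 and 27 carries no test. Of the 511 genes with no call at 0 h, 118 had a change with the sign of the 12 h difference. The gap was larger at 12 h in all 118, which their choice by these calls makes nearly certain. These 118 genes were 52 higher and 66 lower in 162. Of the 166, 129 were called alike under both scalings. The 166 became 71 without replicate 1 of 13-5A at 0 h, 95 without replicate 1 of 13-5A at 12 h and 98 without replicate 2 of 162 at 12 h. Without replicate 2 of 13-5A at 12 h, 152 of the genes then called at 12 h had an interaction.

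The 118 genes that came to differ did so mainly by a rise in the variety where they ended higher. Of the 52 higher in 162, 36 rose over 12 h in 162 and 13 fell in 13-5A, while 13 rose in 13-5A. Of the 66 lower in 162, 44 rose in 13-5A and 14 fell in 162. Among all compared genes, 9.72% rose and 9.49% fell in 162, and 13.1% rose and 8.06% fell in 13-5A. After scaling the corresponding counts were 38 and 13 of 54, and 38 and 10 of 51. These counts describe genes picked on the same 12 h libraries and carry no test.

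Genes of that class are named here only if they had a 0 h difference under 0.5 in size and a mean of at least 5 FPKM, and some genes outside these limits differed more at 12 h. Within the limits, MELO3C029545.2 had the largest difference in favour of 162, at 103, 92.0 and 68.7 FPKM against 7.03, 5.95 and 11.7 in 13-5A. Both varieties had started high, at 279 ± 93.8 and 338 ± 64.2 FPKM (SD, n = 3), a difference of -0.31 as deposited and -0.62 after scaling. The 12 h difference was 3.30 (SE 0.27, limma adjusted p = 6.87e-06) and the change in difference 3.61 (adjusted p = 0.000967). MELO3C006501.2 went the other way over time, from 19 and 29 reads in all at 0 h to 21.9, 14.6 and 11.5 FPKM in 162 and 2.79, 3.13 and 2.94 in 13-5A. Its difference was 2.06 (SE 0.2, adjusted p = 2.25e-05) and its change in difference 2.14 (adjusted p = 0.00343), which with voom was not called (adjusted p = 0.0953).

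On the other side and within the same limits, MELO3C017899.2 stood at 14.5, 19.0 and 11.7 FPKM in 162 and at 58.0, 53.8 and 50.8 in 13-5A. At 0 h both varieties had 13.7 FPKM, with SDs of 1.52 in 162 and 2.03 in 13-5A. The 12 h difference was -1.80 (SE 0.17, limma adjusted p = 2.3e-05) and the change in difference -1.81 (adjusted p = 0.00475). MELO3C012508.2 stood at 9.91, 12.0 and 4.86 FPKM in 162 and at 21.2, 38.5 and 33.1 in 13-5A, a difference of -1.72 (SE 0.32, adjusted p = 0.00301). This gene had started high, at 153 ± 58.9 FPKM in 162 and 128 ± 19.3 in 13-5A, and was lower at 12 h in both varieties. Its change in difference of -1.93 was called (adjusted p = 0.0372) but not after scaling (-1.72, adjusted p = 0.0682), nor in 8 of 12 fits that left out a library.

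Exchanges of rank were rare. Without scaling 10 genes were called in opposite directions at the 2 times, with scaling 7, and under both 4, which are named here after their values were seen. MELO3C002315.2 stood at 75.02, 98.8 and 170 FPKM in 162 and at 20.1, 31.6 and 28.2 in 13-5A at 12 h, by 2.0 (SE 0.29, limma adjusted p = 0.000483). At 0 h it was lower in 162, at 0.393 ± 0.183 against 2.27 ± 0.83 FPKM, by -1.20 (adjusted p = 0.00567). MELO3C007138.2 stood at 5.07, 3.85 and 4.74 FPKM in 162 and at 13.8, 13.5 and 7.89 in 13-5A at 12 h, by -1.16 (SE 0.2, adjusted p = 0.00162). At 0 h it was higher in 162, at 62.4 ± 8.89 against 18.5 ± 2.47 FPKM, by 1.70 (adjusted p = 6.98e-05). MELO3C005466.2 and MELO3C003817.2 also went from higher (1.58 and 1.30) to lower (-1.26 and -1.08) in 162. Their 12 h calls (adjusted p = 0.0356 and 0.0331) were lost in 6 and 4 of 12 fits that left out a library, so their order at 12 h is less firm than that of the other two. The groups of MELO3C003817.2 overlapped at 12 h, with 5.19, 4.08 and 11.2 FPKM in 162 and 15.4, 8.85 and 21.3 in 13-5A. The overlap lay between replicate 3 of 162 and replicate 2 of 13-5A. Its difference was -1.40 without that library of 13-5A (limma adjusted p = 0.0105) and -1.45 without that of 162 (adjusted p = 0.00511). Leaving out an overlapping library widens the gap by construction. The difference was -0.81 without replicate 3 of 13-5A at 12 h (adjusted p = 0.136) and -0.82 without replicate 2 of 162 at 12 h (adjusted p = 0.125).

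Some genes had almost no reads in one variety at 12 h. In 73 genes every 162 library was under 0.1 FPKM and every 13-5A library at 1 FPKM or more, and in 15 genes the reverse held. The 73 had 66 reads in all in the 162 libraries and 94511 in those of 13-5A, and 51 of them had 0 reads in 162. Their level in 13-5A had a median of 4.38 FPKM and ran from 1.23 to 110. At 0 h, 66 of the 73 were under 0.1 FPKM in every 162 library too. The 15 had 28 reads in 13-5A and 8500 in 162, a median of 2.36 FPKM in 162 and a highest of 13.5, and all 15 were under 0.1 FPKM in the 0 h libraries of 13-5A.

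The count of 15 for 13-5A was lower with replicate 2 than without it. Of the 28 reads in the 15 genes, 26 came from it, 2 from replicate 1 and 0 from replicate 3. Without replicate 2, 43 genes met the same limits, still fewer than the 82 almost without reads in 162 in that setting. The count was 16 without replicate 1 and 16 without replicate 3. The 28 genes gained had a median of 0.347 FPKM in replicate 2, with a range of 0.116 to 2.54, beside 4.19 in 162, and their summed level there was 9.09% of that in 162. Unlike the 15, not all of them were that low at 0 h: 18 of the 28 were under 0.1 FPKM in all 0 h libraries of 13-5A. The 66 reads in the 73 genes lay at 17, 26 and 23 in the 162 libraries, where the limit of 0.1 FPKM in every library holds unevenness down. In the 75 genes chosen at 0 h these libraries held 18, 28 and 71 reads. The reference behind the values is not named in the sources used here, and how well each variety's reads map to these genes was not tested.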

How the data were processed

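The authors deposited FPKM per gene and library, not pooled. The sources used here name no aligner, counter, genome build or annotation. Per the labels' protocols, RNA was extracted with TRIzol and sequenced as 150-base paired ends. Columns were matched to samples by description, and 0 columns were left unused.

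Because each FPKM is a whole number of reads divided by gene length and library total, lengths, totals and reads were solved for; all 21691 genes came out whole within 0.001 reads or, for high counts, rounding error. At the median length of 1469 bases, 1 FPKM is about 64.9 reads. Reads and read pairs could not be distinguished. Counting error was only a part of the spread between libraries of a group.

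Genes averaging 1 FPKM or more at 12 h were tested with limma 3.58.1 (R 4.3.3, intensity trend) on log2(FPKM + 1), which understates changes of low genes. The 4 groups of all 12 libraries shared one spread (8 residual degrees of freedom), and p-values were Benjamini-Hochberg adjusted over all 15194 genes. The interaction is the 12 h difference minus the 0 h difference. Other steps used Python 3.11.15, numpy 2.4.6, pandas 2.3.3, scipy 1.17.1 and matplotlib 3.10.9. The fit and the recovery of reads were tested on simulated data.

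Genes were named by rule, at most 2 per direction: the largest differences at 12 h, the largest among genes with a 0 h difference under 0.5 and an interaction call of the same sign, and the most abundant. These had to be called under both scalings, without overlap of groups and with a mean of at least 5 FPKM; the 4 genes with opposite calls at the 2 times were named outside this rule. The comparison, the rule and the planned gene lists, which no identifier matched, were chosen with earlier results of these data known. Libraries of a group differed by a chi-square per gene of 52.4 to 242, far beyond sampling noise, and all were kept.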

Additional observations from a re-analysis of the deposited data

Results flagged for a closer look

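For 10 of the genes named above, the difference between varieties at 12 h departed from that at 0 h by the interaction test of limma, with 162 minus 13-5A taken at each time. MELO3C024499.2 had a change in difference of -4.22, MELO3C029545.2 of 3.61, MELO3C006501.2 of 2.14, MELO3C017899.2 of -1.81, MELO3C012508.2 of -1.93 and MELO3C031601.2 of 1.04. The genes that exchanged rank had 3.21 (MELO3C002315.2), -2.87 (MELO3C007138.2), -2.84 (MELO3C005466.2) and -2.38 (MELO3C003817.2). The adjusted p (Benjamini-Hochberg) was lowest, 0.000551, for MELO3C007138.2 and highest, 0.046, for MELO3C031601.2. The calls of MELO3C029545.2, MELO3C017899.2, MELO3C002315.2 and MELO3C007138.2 were made under all 20 alternatives, with adjusted p-values of at most 0.00596, 0.0202, 0.0128 and 0.00343. Those of MELO3C031601.2 and MELO3C012508.2 were lost under 15 and 12 of 20.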

How the results depend on the processing

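Of 809 values under alternatives, 749 kept their side of the threshold, stayed within 1.5 times the count or moved by less than the replicate spread, 13 moved, 47 calls of named genes were lost and 0 called differences turned sign. Of the 809, 616 concern the 16 named genes, which were chosen on their calls. Without the fold minimum the counts became 3448 (2120 higher, 1328 lower), with 2313 called alike at 0 h and 364 with an interaction, by construction. A minimum mean of 5 FPKM left 300 lower genes, since fewer were tested. Limits of 0.5 and 5 FPKM left 32 and 9 genes almost without reads in 162 and 13-5A. The difference in median log2 level between varieties, 0.08, became -0.022 under median-ratio scaling, which centres the libraries. Leaving out each library gave 977 to 1420 calls (582 to 924 higher, 390 to 511 lower), 958 to 1354 after scaling (504 to 725 higher, 454 to 629 lower), 552 to 809 called alike at 0 h, 71 to 215 with an interaction, and 75 to 82 and 16 to 43 genes almost without reads in 162 and 13-5A. Scaled fits with each library left out, on the 6 libraries alone, with the block or with voom were added after seeing the data. The labels do not say whether shared replicate numbers mark pairs. Deviations of same-numbered 12 h libraries correlated at -0.23, -0.02 and -0.32, and those of other-numbered ones at -0.23 to 0.42. Such deviations sum to 0 within each group of 3, so these values cannot settle it. The replicate block gave 1212 calls, of which 120 had an interaction, and voom on the recovered reads 1556 (1005 higher, 551 lower). Where not stated, the cause was not tested. By the definition of FPKM, short genes of low FPKM rest on the fewest reads, and the effect of depth was not tested.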
